A study of Mus musculus with 12 samples.

Results

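The genes described here are the 45 mouse genes that encode the DNA replication machinery and the enzymes that supply its deoxynucleotides. They were chosen by symbol, from a list of replication factors, with no measured value used as a filter. Earlier results of these data were known at that point. The study had already listed DNA replication among the main functions of transcripts lower in knockout cumulus cells, so their fall there is not an independent finding. All 45 were present in both expression tables, which share 26382 genes. The RNA was taken from mural granulosa cells (MGCs, the granulosa cells that line the wall of the ovarian follicle) and from cumulus cells (the granulosa cells that surround the oocyte). Cells came from WT (control) mice and from mice with the Sphk1/2 knockout, collected 2 h after hCG, with 3 libraries in each of the 4 groups and 12 libraries in all. Human chorionic gonadotropin (hCG) acts on the receptor of luteinizing hormone and starts ovulation. All animals were immature females primed with equine chorionic gonadotropin before hCG. WT mice were C57/BL6, and the knockout, named Sphk1/2gc-/- in the study, was Sphk1-/-; Sphk2 fl/fl; Fshr-Cre, so that it lacked Sphk1 in the whole body and Sphk2 where the Fshr promoter drives Cre, which is in granulosa cells. The strain background of the knockout and its control for Cre were not given in the sources used here. Sphk1 and Sphk2 encode the kinases that make sphingosine-1-phosphate.

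Replication is prepared in G1, when the origin recognition complex, Cdc6 and Cdt1 load the MCM helicase onto DNA, and starts in S phase, when Cdc45 and the GINS complex turn the helicase on. Primase and the polymerases then copy the strands, with the sliding clamp Pcna and its loader, the Rfc complex, while ligase and the single-strand binding protein RPA complete and protect the product. Most of these genes are transcribed in a wave at the G1 to S transition under E2F factors, and granulosa cells are known to divide fast in growing follicles and to leave the cell cycle after the luteinizing hormone surge.

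The totals by which the libraries were scaled were 16100365 to 19761604 reads, as worked out from the smallest step of the values. The reads recovered per gene summed to more than that total in every library (17319312 against 16100365 in WT cumulus library 1). The reason was not tested. Levels are in FPKM (fragments per kilobase of exon, scaled to the total of the library). Sphk1 stood at 0.0699 to 0.0954 FPKM in WT cumulus cells and at 0.0778, 0.456 and 0.557 FPKM in the 3 knockout libraries. Sphk2 stood at 0.403 to 0.602 FPKM in WT cumulus cells and at 0.434 to 0.752 FPKM in the knockout. In MGCs Sphk2 was at 5.18 to 5.86 FPKM in WT and at 4.51 to 6.29 FPKM in the knockout, and Sphk1 was at 0.460 to 1.88 and 0.104 to 0.557 FPKM. These values cover the whole gene, and exons outside the deleted part still count, so they do not check the genotype, and WT and knockout below name the libraries as they were labelled. The mural markers (Lhcgr, Nppc, Cyp11a1 and Cd34) were lower in WT cumulus cells than in WT MGCs in 4 of 4 cases, but of the 7 cumulus markers 4 were also lower there and 2 were higher, so that these markers part the cell types only in the mural direction. The third knockout MGC library stood apart (correlation of 0.912 to 0.939 with the other MGC libraries), and the third WT cumulus library listed 27541 genes above 0 where the other cumulus libraries listed 18788 to 19289.

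Promoters are printed for the member with the largest fall in cumulus cells (log2(FPKM + 1) scale) in each of 4 role groups, in order of that fall and where the reference held one, since the members moved together there. Each run covers 250 bases before to 50 after the start of the gene in RefSeq (GRCm38.p6), written 5′ to 3′ on the strand of the gene, with E2F letters on either strand in capitals, which are TTCCCGC and the variants with other inner bases, namely TTGGCGC as well as TTCGCGC and also TTGCCGC. Rfc4, which encodes a subunit of the clamp loader, has its promoter at chr16:23127681-23127980 (minus strand), that of Tk1 (thymidine kinase) is at chr11:117825965-117826264 (minus strand), that of Lig1 (DNA ligase 1) at chr7:13276925-13277224 (plus strand) and that of Pola1 (the catalytic subunit of polymerase alpha) at chrX:93632106-93632405 (minus strand).
Rfc4: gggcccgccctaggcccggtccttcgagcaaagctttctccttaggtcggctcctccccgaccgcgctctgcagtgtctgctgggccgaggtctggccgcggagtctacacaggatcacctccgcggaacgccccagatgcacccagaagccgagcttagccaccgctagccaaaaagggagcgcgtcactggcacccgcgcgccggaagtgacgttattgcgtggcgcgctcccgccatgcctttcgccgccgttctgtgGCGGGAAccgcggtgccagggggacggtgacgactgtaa
Tk1: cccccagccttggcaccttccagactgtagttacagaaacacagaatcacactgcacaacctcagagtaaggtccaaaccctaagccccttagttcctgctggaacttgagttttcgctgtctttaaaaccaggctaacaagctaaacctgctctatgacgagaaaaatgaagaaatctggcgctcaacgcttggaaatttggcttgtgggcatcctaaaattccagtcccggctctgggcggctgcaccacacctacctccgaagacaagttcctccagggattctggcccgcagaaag
Lig1: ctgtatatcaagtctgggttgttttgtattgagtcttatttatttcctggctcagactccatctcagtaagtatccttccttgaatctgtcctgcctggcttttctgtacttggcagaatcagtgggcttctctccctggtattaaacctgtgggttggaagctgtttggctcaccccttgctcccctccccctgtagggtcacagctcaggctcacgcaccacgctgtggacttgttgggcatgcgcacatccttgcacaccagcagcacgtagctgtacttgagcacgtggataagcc
Pola1: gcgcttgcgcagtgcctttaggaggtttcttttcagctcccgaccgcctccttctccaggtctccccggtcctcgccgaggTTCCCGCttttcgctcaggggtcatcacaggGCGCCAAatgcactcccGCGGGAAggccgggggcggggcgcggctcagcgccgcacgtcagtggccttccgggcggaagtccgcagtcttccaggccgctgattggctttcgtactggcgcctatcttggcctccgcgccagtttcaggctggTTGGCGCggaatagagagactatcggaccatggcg
The 4 windows differ: Pola1 holds 4 matches, Rfc4 holds 1 just after the start, and Tk1 and Lig1 hold 0.

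Of the 45 members, 37 had a promoter in the RefSeq table, and 21 of these (56.8%) held the E2F letters, against 9.72% of 27025 promoters of the same length. Of the 37 matches in member promoters, 26 lay between 100 bases before and 50 bases after the start. The letters CCAAT (either strand) stood in 62.2% of the member promoters and in 37.8% of all promoters, and the GC box letters GGGCGG in 73.0% and 36.0%. The letters TTTGAA, which mark the cell cycle homology region of genes of mitosis, stood in 10.8% and 18.1%. A match is a run of letters and was not tested for binding. In cumulus cells the 21 members with E2F letters had a median log2 fold change of -0.93 (knockout minus WT), with 11 of them lower, and the 15 tested members whose window held none had a median of -0.81, with 10 lower. The 8 members with no window in the table had a median of -1.18, with 7 lower.

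In cumulus cells, the replication genes were lower in the knockout than in WT as a group and in nearly every role. The test was limma on log2(FPKM + 1) over all 12205 genes whose mean reached 0.5 FPKM in either genotype, and a gene passed when its p, adjusted by the method of Benjamini and Hochberg, was at most 0.05. Of the 44 members tested, 28 fell and 0 rose, where 12.7% of all genes tested fell and 9.66% rose. At a fall of at least 2-fold the members numbered 19, against 3.85% of all genes. The median log2 fold change was -0.94 over the members and -0.06 over all genes, and 42 members had a value below 0, as did 55.1% of all genes. In 31 members every knockout library lay below every WT library, as it did in 24.1% of all genes. No label says that the 3 libraries of a group came from separate animals, so the p-values measure only the spread between these libraries, and in bulk RNA fewer cells in S phase and less RNA per cell cannot be told apart.

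**Figure D1:**
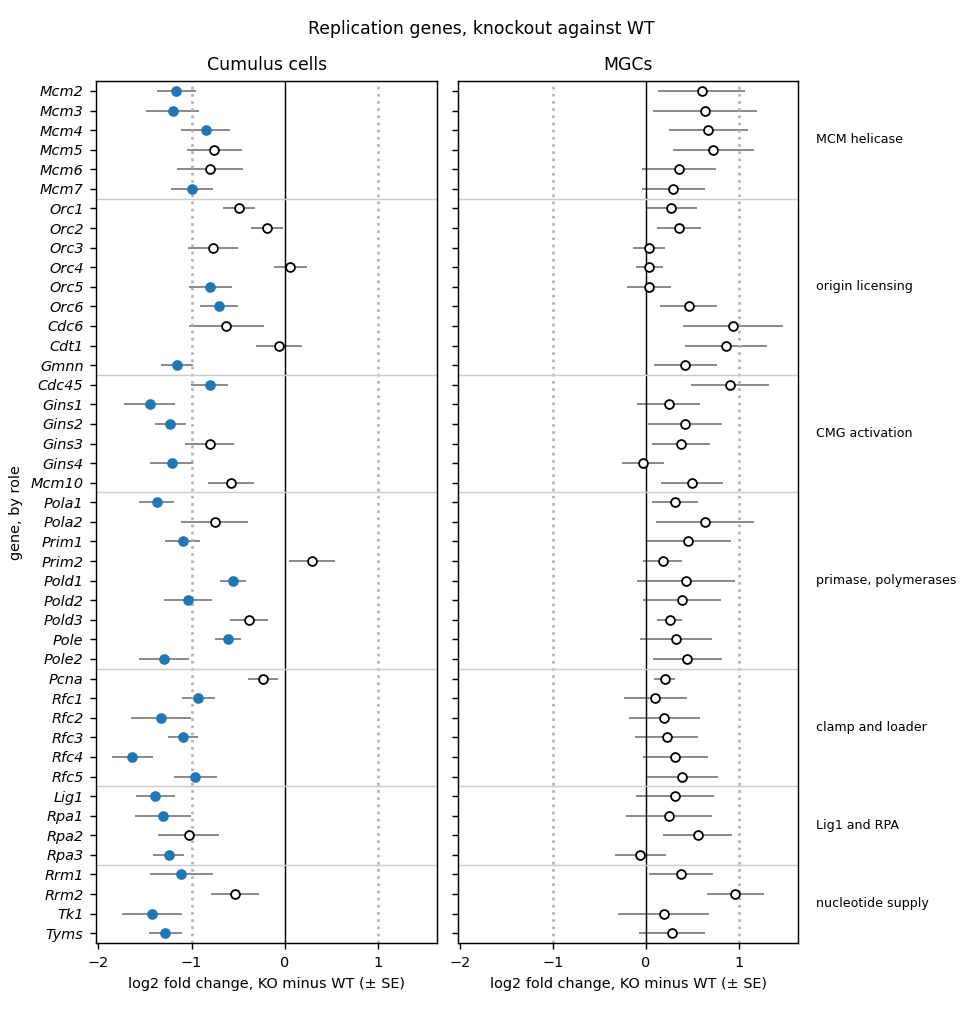
Log2 fold change (knockout minus WT, on the log2(FPKM + 1) scale) with its SE for 44 replication genes in cumulus cells (left) and MGCs (right), by role. Filled blue points passed the test and open points did not, and dotted lines mark a 2-fold change. In cumulus cells 28 points are filled and lie left of 0, and in MGCs 0 points are filled and 42 lie right of 0.

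On the log2(FPKM + 1) scale the largest fall of a single gene was in the clamp loader, while by share of WT Pole (28.5%) and Tk1 (31.4%) stood lower, and with a pseudocount of 0.1 Tk1 had the lower value (-1.89 against -1.65 for Rfc4). Rfc4 (ENSMUSG00000022881, chr16:23113943-23127737) stood at 198, 175 and 152 FPKM in the 3 WT libraries and at 75.2, 51.9 and 43.2 FPKM in the knockout, which is a level of 32.4% of WT (log2 fold change -1.64 ± 0.220 SE, adjusted p = 0.00283, limma). The groups did not overlap, and Rfc4 was the most abundant member in WT cumulus cells. Of its exon bases, 12.7% are shared with Eif4a2 on the opposite strand, and as the library kit does not mark the strand the reads there cannot be told apart. Rfc2 stood at 32.7, 39.98 and 37.8 FPKM in WT and at 25.4, 9.54 and 11.1 FPKM in the knockout (log2 fold change -1.33, adjusted p = 0.0221), and 15.1% of its exon bases are shared with Lat2 on the opposite strand. Its first knockout library lay nearer to WT than to the other knockout libraries. Rfc3 (-1.09), Rfc5 (-0.96) and Rfc1 (-0.93) fell as well, so that 5 of the 6 genes of the clamp and loader fell. The exception was the clamp itself. Pcna stood at 15.6, 14.6 and 12.2 FPKM in WT and at 13.8, 11.4 and 10.5 FPKM in the knockout, the groups overlapped, and the difference did not pass (log2 fold change -0.23 ± 0.165 SE, adjusted p = 0.339).

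Among the polymerases, Pola1 had the lowest log2 fold change on the log2(FPKM + 1) scale (ENSMUSG00000006678, chrX:93304767-93632155), whose product extends the RNA primers. Pola1 stood at 9.73, 10.8 and 8.26 FPKM in WT and at 3.97, 3.13 and 2.27 FPKM in the knockout (log2 fold change -1.37 ± 0.191 SE, adjusted p = 0.00312), with no overlap. Pole2, an accessory subunit of polymerase epsilon, stood at 10.2, 9.33 and 8.97 FPKM in WT and at 5.73, 2.72 and 2.10 FPKM in the knockout (log2 fold change -1.30, adjusted p = 0.0127). Pole, the catalytic subunit of polymerase epsilon (the leading strand enzyme), was the least abundant member tested, at 1.02, 0.892 and 0.847 FPKM in WT (166 to 184 reads per library) and at 0.390, 0.172 and 0.224 FPKM in the knockout (38 to 82 reads). Its level was 28.5% of WT, the lowest share of any tested member, while its log2 fold change of -0.61 (adjusted p = 0.0163) was held down by the pseudocount of 1. Prim1 (-1.09), Pold2 (-1.04) and Pold1 (-0.56) fell too, which made 6 of 9 genes of this role. Prim2, the other primase subunit, went the other way without passing: it stood at 3.34, 6.06 and 5.28 FPKM in WT and at 8.22, 5.92 and 4.57 FPKM in the knockout (log2 fold change 0.30, adjusted p = 0.410). The paired primase subunits thus had fold changes of opposite sign in the same libraries, and that difference was not tested.

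The genes that activate the helicase fell in 4 of 6 cases. The GINS subunit Gins1 stood at 68.5, 69.0 and 53.0 FPKM in WT and at 35.7, 19.0 and 16.5 FPKM in the knockout (log2 fold change -1.45 ± 0.276 SE, adjusted p = 0.0094). Gins2, its partner, stood at 11.0, 11.1 and 9.21 FPKM and at 4.86, 3.40 and 3.50 FPKM (-1.23, adjusted p = 0.00304). Of the Gins2 exon bases, 67.3% are shared with Gse1 on the opposite strand, so its reads cannot be assigned with certainty. Gins4 was abundant and fell from a mean of 144 ± 17.5 to 63.6 ± 20.6 FPKM (SD, n = 3 each), and Cdc45 fell from 6.63 ± 0.491 to 3.45 ± 1.17 FPKM. Mcm10, which joins the helicase to polymerase alpha, stood at 3.44, 4.09 and 3.40 FPKM in WT and at 3.63, 1.70 and 1.41 FPKM in the knockout, where the first library lay within the WT range (log2 fold change -0.58, adjusted p = 0.122).

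Of the 6 subunits of the MCM helicase, 4 fell. Mcm3 stood at 26.8, 32.2 and 32.5 FPKM in WT and at 21, 8.75 and 10.9 FPKM in the knockout (log2 fold change -1.20 ± 0.285 SE, adjusted p = 0.0209). Mcm2 stood at 15.9, 18.1 and 15.0 FPKM and at 9.01, 4.83 and 6.88 FPKM (-1.16 ± 0.210 SE, adjusted p = 0.00778). Mcm7 (-1.0) and Mcm4 (-0.85) fell as well, and all 4 kept the groups apart. Mcm5 stood at 14.9, 18 and 17.2 FPKM in WT and at 15.5, 5.66 and 9.35 FPKM in the knockout (-0.76, adjusted p = 0.102), and Mcm6 had a log2 fold change of -0.80 (adjusted p = 0.138). In both, the first knockout library was within the WT range and the other two were below it.

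Origin licensing was the role with the smallest share of members past the test, 3 of 9. Gmnn (ENSMUSG00000006715, chr13:24751845-24761923), which encodes geminin, the inhibitor of Cdt1, stood at 50.1, 45 and 34.6 FPKM in WT and at 20.2, 18.4 and 17.5 FPKM in the knockout (log2 fold change -1.15 ± 0.174 SE, adjusted p = 0.00419). Its 3 knockout libraries lay close together, unlike those of most members. Of the origin recognition complex, Orc5 stood at 15.2, 15.6 and 12.7 FPKM and at 11.6, 6.93 and 5.99 FPKM (-0.80, adjusted p = 0.0400), and Orc6 fell by 0.70 on the log2 scale (adjusted p = 0.0437). Orc4 stood at 23.4, 20.1 and 20.6 FPKM in WT and at 26.9, 22.6 and 18.1 FPKM in the knockout, with a log2 fold change of 0.06 (adjusted p = 0.832). The loaders Cdt1 (3.95 ± 1.11 in WT and 3.76 ± 1.32 FPKM in the knockout) and Cdc6 (7.78 ± 1.89 and 5.43 ± 4.31 FPKM) did not pass. For Cdt1 and its inhibitor Gmnn the log2 fold changes were -0.06 and -1.15, and that difference was not tested.

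Of the genes that join and protect new strands, Lig1 stood at 12.7, 15.2 and 12.2 FPKM in WT and at 6.03, 3.20 and 4.56 FPKM in the knockout (log2 fold change -1.39 ± 0.208 SE, adjusted p = 0.00409). Rpa1, the large subunit of RPA, stood at 10.8, 10.7 and 9.88 FPKM and at 6.90, 2.48 and 2.62 FPKM (-1.30, adjusted p = 0.0183). Rpa3, the small subunit, stood at 167, 139 and 119 FPKM and at 55.3, 63.6 and 57.1 FPKM (-1.25, adjusted p = 0.00281), and it was the only tested member whose first knockout library was not above the other two. Rpa2 stood at 62.1, 71.6 and 59.2 FPKM and at 56.1, 22 and 23.6 FPKM, with no overlap, and did not pass (-1.03, adjusted p = 0.0545). Fen1, the flap endonuclease, was listed at 0 in all 6 cumulus libraries and at 0.0492 to 0.662 FPKM (2 to 29 reads) in MGCs, and was not tested. Of the Fen1 exon bases, 78.8% are shared with Gm10143 on the opposite strand, so its listed values need not be its expression.

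In nucleotide supply, the S phase kinase Tk1, which phosphorylates thymidine, stood at 6.21, 6.89 and 5.76 FPKM in WT and at 3.86, 1.03 and 1.02 FPKM in the knockout (log2 fold change -1.42 ± 0.323 SE, adjusted p = 0.0176). Tyms, thymidylate synthase, stood at 28.2, 28.6 and 23.5 FPKM and at 13.1, 9.54 and 8.95 FPKM (-1.28 ± 0.180 SE, adjusted p = 0.00329). Of the subunits of ribonucleotide reductase, Rrm1 fell from 20.3 ± 1.81 to 9.89 ± 6.33 FPKM (-1.11, adjusted p = 0.0488), and Rrm2 stood at 16.7, 18.1 and 18.9 FPKM in WT and at 19.3, 9.62 and 9.31 FPKM in the knockout (-0.53, adjusted p = 0.171). The first knockout library held the highest Rrm2 value of the 6.

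**Figure D2:**
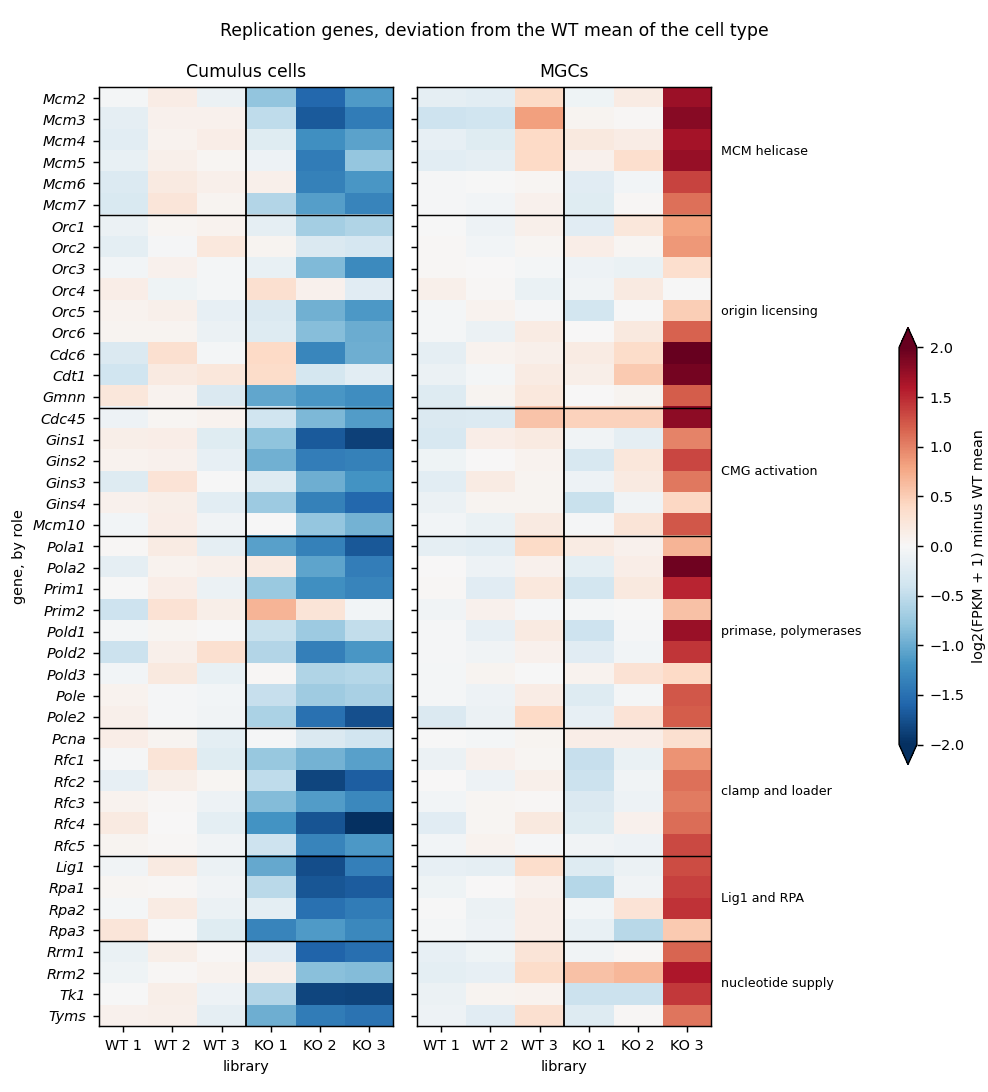
Deviation of each of 44 replication genes from the WT mean of its cell type, in log2(FPKM + 1), for each library (columns) of cumulus cells (left) and MGCs (right). Colours stop at 2 in either direction. In cumulus cells knockout libraries 2 and 3 are blue in nearly every row and library 1 is paler, and in MGCs knockout library 3 is red in nearly every row while libraries 1 and 2 are near WT.

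The 3 knockout cumulus libraries did not fall equally. The median deviation of the members from the WT mean was -0.43 (log2) in the first library, -1.20 in the second and -1.18 in the third, where all genes tested stood between -0.06 and -0.05. In 43 of 44 members the first library lay above both others, as it did in 39.8% of all genes. It was below every WT library in 31 members and above every WT library in 6, while the second was below every WT library in 41 and the third in 42. A fall of at least 2-fold from the WT mean was present in 9, 35 and 35 members. For these counts of single libraries against WT the shares of all genes are not given here, so they describe the members only. Without the first library 39 members fell, 32 of them at least 2-fold, against 17.8% and 5.3% of all genes then tested, and the median was -1.21. Without any other single cumulus library the number that fell was 14 to 17 (15, 14 and 17 without WT 1, 2 and 3, and 14 without either of knockout 2 and 3). Over the 6 fits with 1 library left out, 684 to 2197 of all genes fell, against 1546 with every library kept. The highest of these was without the first knockout library. The members that fell with any 1 of the 6 libraries left out numbered 13, namely Mcm2, Gmnn, Gins1, Gins2, Gins4, Pola1, Prim1, Rfc1, Rfc3, Rfc4, Lig1, Rpa3 and Tyms, and 41 of 44 had a value below 0 each time. The share of all genes that fell or stayed below 0 in every such fit is not given here. With no filter on low values 13 members fell, and 692 of all genes did.

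Other cell cycle and cell type markers moved in the same cumulus libraries. Of 12 mitosis markers (Mki67, Cdk1 and others) 9 fell and 0 rose, with a median log2 fold change of -1.10, and their summed level was 913 to 984 FPKM in the WT libraries and stood at 556, 388 and 329 FPKM in those of the knockout. Of 10 granulosa markers 6 fell (summed 3029 to 4179 FPKM in WT and 2572 to 2925 FPKM in the knockout), and 4 of 7 cumulus markers, a list that holds the expansion genes Has2, Ptx3 and Tnfaip6, rose (summed 283 to 619 and 1051 to 1279 FPKM). The summed oocyte markers were 4.75 to 8.83 FPKM in WT and 3.65 to 4.20 FPKM in the knockout, against 33.1 to 132 FPKM in MGCs, and the summed endothelial markers were below 1 FPKM in every cumulus library. The summed leukocyte markers were 5.52 to 55.4 FPKM in WT and 10.0 to 57.4 FPKM in the knockout, and the erythroid markers 4.37 to 27.0 and 0.300 to 1.78 FPKM. Theca and stroma markers summed to 17.6 to 64.4 and 11.9 to 33.1 FPKM, and mural markers to 27.8 to 72.9 and 22.4 to 45 FPKM. The part of these cells in the fall of the replication genes was not tested.

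Other genes of the same processes, from lists written from general knowledge, were counted in the same test, where 12.7% of all genes fell. Of 29 tested genes of the replication fork and its control 9 fell (31.0%) and 2 rose (median log2 fold change -0.63), of 13 genes that copy chromatin 8 fell (61.5%, median -0.71), and of 27 genes of nucleotide synthesis 5 fell (18.5%, median -0.26), a share near that of all genes. The 3 with the largest change at the fork were Pclaf, a partner of Pcna (151 ± 20.2 to 43.9 ± 13.7 FPKM, log2 fold change -1.80), Dscc1, of an alternative clamp loader (-1.78), and Top2a, a topoisomerase (-1.38). Among chromatin genes these were Supt16, a subunit of the histone chaperone FACT (-1.20), Uhrf1, which helps to copy DNA methylation (-1.02), and Hells, a chromatin remodeller (-0.93). Among nucleotide genes they included Dck, a deoxynucleoside kinase (-1.22), and Shmt2, which feeds the folate cycle (-1.13). The 2 that rose, named after their values were seen, were Pold4, a small subunit of polymerase delta (1.29), and Top1, topoisomerase I (0.76).

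In MGCs, 0 of the 44 members passed in either direction, where 0.0327% of 15279 genes fell and 0.00654% rose. At an unadjusted p of 0.05 or less 1 member (Rrm2) was higher and 0 were lower, where 3.31% of all genes were higher and 5.9% were lower. With voom on the reads recovered from the values 0 members passed. Of the members 42 had a log2 fold change above 0, as did 49.5% of all genes, and the median was 0.35 over the members and 0.00 over all genes. The libraries were unequal. The median deviation from the WT mean was -0.10 and 0.05 in knockout libraries 1 and 2 and 1.21 in library 3, in which all genes stood at 0.15. Library 3 was the highest of the 6 MGC libraries in 43 of 44 members, as it was in 45.4% of all genes. It was at least 2-fold above the WT mean in 33 members, while libraries 1 and 2 were so in 0. The share of all genes at that 2-fold limit is not given here.

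The spread within the knockout was wide in MGCs. In the WT libraries Mcm3 stood at 15.4, 15.5 and 37.3 FPKM, in those of the knockout it stood at 21.6, 21.1 and 76.0 FPKM, and in each genotype the third library was the highest. Cdc6 stood at 1.33, 1.76 and 1.84 FPKM and at 1.94, 2.39 and 11.7 FPKM. Pola1 stood at 2.39, 2.35 and 4.05 FPKM and at 3.32, 3.10 and 5.19 FPKM. Rrm2, the reductase subunit limiting for deoxynucleotides, had all 3 knockout values (27.4, 29.0 and 57.1 FPKM) above all 3 WT values (15.5, 15.9 and 23.3 FPKM), but its log2 fold change of 0.96 ± 0.307 SE did not pass (adjusted p = 0.418). Such a gap was present in 5 members (Orc2, Cdc6, Pold3, Pcna and Rrm2) and in 7.72% of all genes. Without knockout library 3 the median of the members was -0.029 and 0 passed. With both MGC libraries 3 left out the median was 0.02, and Rrm2 (0.81), Cdc45 (0.74), Mcm3 (0.44) and Mcm4 (0.37) rose, where 5.07% of all genes rose and 11% fell.

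**Figure D3:**
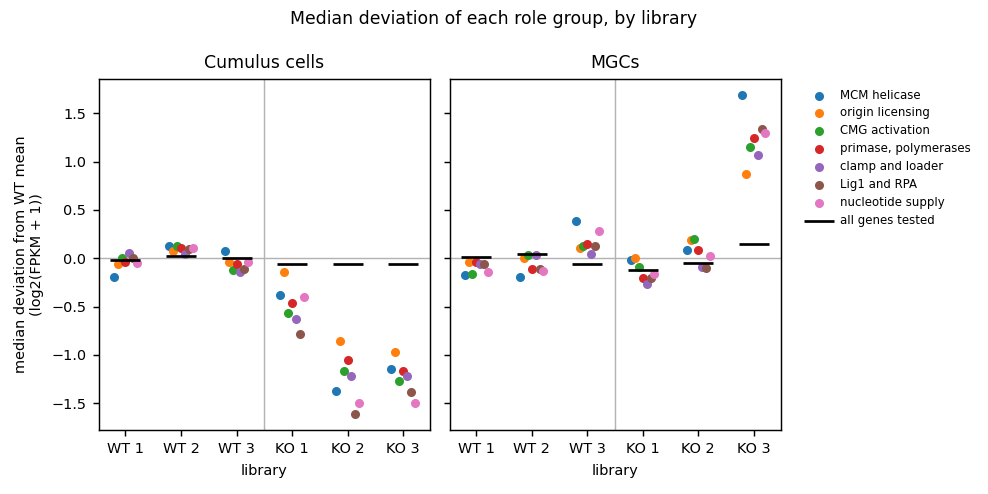
Median deviation from the WT mean (log2(FPKM + 1)) of each role group of replication genes in each library, with all genes tested as black bars. All 7 role groups of the first knockout cumulus library lie between WT and the other 2 knockout libraries, and all 7 lie above 0.8 in the third knockout MGC library, where all genes stand at 0.15.

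Markers of other cells moved with the third knockout MGC library. Its 12 mitosis markers had a median deviation of 1.01 and summed to 359 FPKM, against 157 to 221 FPKM in the other 5 MGC libraries. Its leukocyte markers summed to 22 FPKM, against 91.9 to 316 FPKM, and its erythroid markers to 30.6 FPKM, against 230 to 404 FPKM. The cumulus markers summed to 692 FPKM (1433 to 2597 FPKM in the others), the mural markers to 385 FPKM (431 to 1168 FPKM), and the granulosa markers, at 13817 FPKM, lay within the range of the others (9394 to 15757 FPKM). The oocyte markers, at 132 FPKM, were the highest of the 6 libraries (33.1 to 117 FPKM in the others), and the theca and stroma markers (150 FPKM against 175 to 332 FPKM) and endothelial markers (7.94 against 9.00 to 16.6 FPKM) the lowest. The part of these differences in the levels of the replication genes was not tested.

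The fall in cumulus cells and the values in MGCs were compared directly in 1 model of all 12 libraries, by subtracting the log2 fold change in MGCs from that in cumulus cells. The result was below 0 in 42 of 44 members (52.2% of all genes), with a median of -1.40. It passed in 3 members, Rfc4 (-1.95 ± 0.434 SE, adjusted p = 0.0334), Pola1 (-1.69 ± 0.318 SE, adjusted p = 0.0198) and Gmnn (-1.58 ± 0.394 SE, adjusted p = 0.0480), and 1.48% of 15869 genes passed in that direction and 2.45% in the other. In MGCs the values of Rfc4 were 5.18, 6.37 and 7.23 FPKM (WT) and 5.08, 6.62 and 14.6 FPKM (knockout), and those of Gmnn 4.30, 5.53 and 6.27 FPKM (WT) and 5.36, 5.56 and 13.6 FPKM (knockout), so that knockout libraries 1 and 2 lay within the WT range or, for Rfc4 library 1, just below it. Those of Pola1, given above, were higher in each knockout library than in the WT library of the same number. With the replicate number as a block, since MGC libraries of the same number deviated together, only Pola1 passed (adjusted p = 0.0375, against 0.0595 for Rfc4 and 0.0745 for Gmnn). That block also tied cumulus to MGC libraries of the same number, which did not deviate together. Their correlations were 0.00197, 0.0510 and 0.0168 in WT and -0.2055, 0.0419 and -0.1985 in the knockout. Without the third knockout MGC library 8 members passed (median -0.90), where 3.01% of all genes passed in that direction, and with both MGC libraries 3 left out 14 passed (median -0.95), where 5.44% did. The number was 14 without knockout cumulus library 1 (3.22% of all genes), 11 without knockout MGC library 1 (2.19%) and 6 without WT MGC library 3 (2.25%). It was 0 without WT MGC library 1 or 2, WT cumulus library 1 or 2, or knockout cumulus library 2 or 3, and in these fits 34 to 70 of all genes passed in that direction.

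Most replication genes stood at a higher FPKM in WT cumulus cells than in WT MGCs. The tables were compared because every library in both was scaled by its own total, with the same exon lengths. FPKM gives a level relative to the library and no amount of RNA per cell. Each cell type has its own table, so cell type and any difference in how the tables were made cannot be told apart. Of 44 members 27 were higher in cumulus cells and 2 were lower, where 24.1% of 15869 genes were higher and 52.5% were lower, and 25 of the 27 were higher by at least 2-fold on the log2(FPKM + 1) scale (15.4% of all genes). The median log2 difference (cumulus minus MGC) was 1.10 over the members and -0.54 over all genes. Over all 45 members, every WT cumulus library lay above every WT MGC library in 32 and below in 5, among them Fen1, which was not tested. The shares of all genes parted in this way are not given here, so these counts describe the members only.

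**Figure D4:**
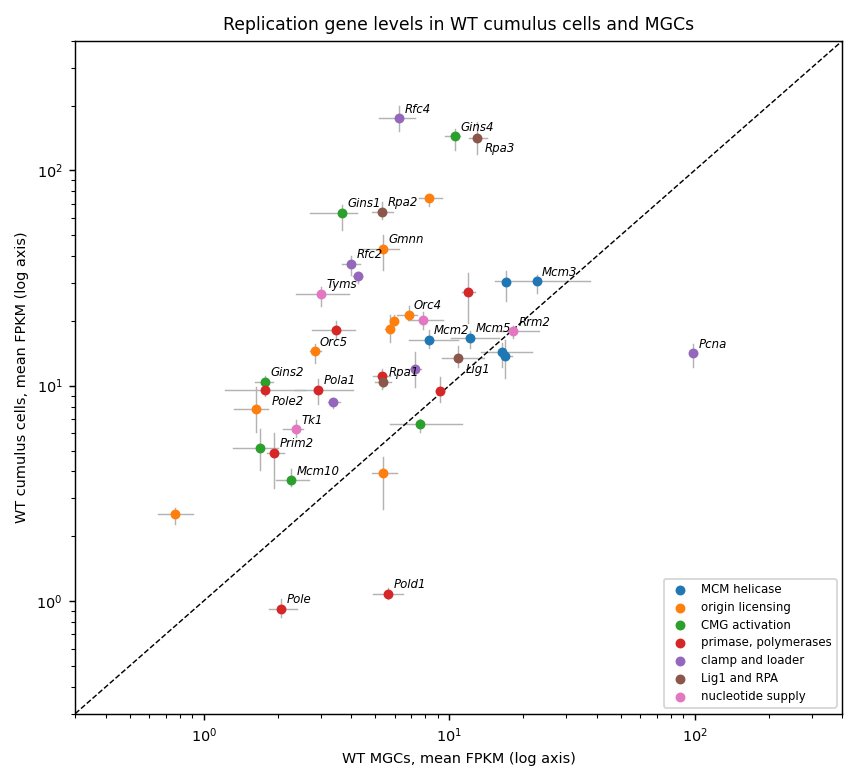
Mean level (FPKM, log axes) of 44 replication genes in WT MGCs (horizontal) and WT cumulus cells (vertical), coloured by role, with grey lines from the lowest to the highest of 3 libraries and a dashed line of equal levels. Rfc4 lies farthest above the line, at 6.26 and 175 FPKM, and Pcna farthest below, at 98.9 and 14.1 FPKM.

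The differences ran over a wide range within each complex. Rfc4 had a mean of 6.26 ± 1.03 FPKM in WT MGCs and 175 ± 23.2 FPKM in WT cumulus cells, a ratio of 27.9. The ratio was 17.3 for Gins1, 13.7 for Gins4, 12.0 for Rpa2 and 10.9 for Rpa3, but 1.65 for Rfc1, 0.870 for Cdc45 and 1.93 for Rpa1. The ratios of the helicase subunits ran from 0.814 (Mcm7) to 1.98 (Mcm2), and 1 of 6 passed. Of the licensing genes 8 of 9 were higher in cumulus cells, with Cdt1 (ratio 0.731) the exception that did not pass. Pcna held 97.9, 96.3 and 102 FPKM in the MGC libraries but 15.6, 14.6 and 12.2 FPKM in the cumulus libraries, a log2 difference of -2.73 ± 0.137 SE (adjusted p = 7.52e-09), and Pold1, the catalytic subunit of the polymerase that Pcna holds on DNA, stood at 5.65 ± 0.794 and 1.08 ± 0.0612 FPKM (-1.67, adjusted p = 0.00254). Pcna was thus the most abundant member in MGCs and near the median of the members (14.4 FPKM) in cumulus cells.

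These differences between cell types moved with a property of the transcripts. Over the 44 members, the log2 difference had a Spearman correlation of -0.36 with the GC content of the transcript and -0.26 with its length, and over 15849 genes these were -0.35 and -0.26. The points share 12 libraries, and the values are a description across genes, which are not independent. The fold change of the knockout in cumulus cells had a correlation with GC content of -0.11 over the members and 0.09 over all genes, and that in MGCs 0.40 and 0.03. The part of GC content in the difference between the cell types was not tested. Scaling by the median of ratios moved the median of all genes by 0.45 and gave 37 members higher and 2 lower (median 1.70), with 5616 genes higher and 6105 lower in all against 3820 and 8336, and scaling to equal totals moved it by -0.14 and gave 23 members higher and 3 lower (median 0.83). Relative to the median of all genes, the members stood 1.65 higher, and 1.80 and 1.51 under those scalings. The counts of all genes under equal totals are not given here. Over 9 alternative settings 3118 to 5616 of all genes were higher and 6105 to 9658 were lower.

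The same comparison was made between the cell types of the knockout. Knockout cumulus cells were higher than knockout MGCs in 15 members and lower in 12, where 22% of all genes were higher and 51.3% were lower, and the median difference was -0.22, with all genes at -0.51. Those still higher by the most were Rfc4 (2.65), Gins4 (2.47) and Rpa3 (2.15), and Pcna (-3.16) and Pold1 (-2.65) remained lower. The median was 0.21 without the third knockout MGC library and 0.41 under scaling by the median of ratios, so its sign turned on that library and on the scaling.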

How the data were processed

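The members and lists were chosen with earlier results of these data known. Libraries were made with the NEBNext Ultra RNA kit, per the labels, and the submitters' processing notes name HISAT2 and GRCm38. The counting tool was not given in the sources used here. The deposited values are FPKM, made by the authors in 1 table per cell type (33137 genes for cumulus cells and 29101 for MGCs), and 0 columns were left unused. Values times exon length (GENCODE M21) were whole multiples of 1 step per library for 90.6% to 92.1% of values above 0 (tolerance 0.02 reads). That step gave the total by which each library was scaled.

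Values were tested as log2(FPKM + 1) with limma 3.58.1 in R 4.3.3 with an intensity trend, in each cell type alone and in 1 model of all 12 libraries for contrasts between cell types, and no further scaling was applied. Genes entered where the mean of a group reached 0.5 FPKM, and p-values were adjusted over all of them (Benjamini-Hochberg). No counts were tested in the main analysis, and the code was tested on simulated data. Libraries of the same number deviated together in MGCs, where each correlation (0.220, 0.158 and 0.224) was above the limit of 0.1. In cumulus cells (-0.148, -0.0511 and 0.115) only the third was above it. The number was therefore used as a block in an alternative.

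Values in every library are given for the 2 members of each role with the largest change in cumulus cells and the 1 with the smallest, and for Pola1 and Pole. Of each other list the 3 genes with the largest change among those that passed are named, except that 1 of them is not reported here, and further genes were named after their values were seen. Alternatives were another pseudocount (0.1), no filter or a mean of 1 FPKM, 2 scalings, no trend, voom on reads, the block, and each library left out.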

Additional observations from a re-analysis of the deposited data

Results flagged for a closer look

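The genotype effect in cumulus cells differed from that in MGCs, by a test of the difference itself in all 12 libraries, in Rfc4 (-1.95), Pola1 (-1.69) and Gmnn (-1.58; log2, effect in cumulus cells minus effect in MGCs). With the replicate number as a block only Pola1 passed (adjusted p = 0.0375, against 0.0595 for Rfc4 and 0.0745 for Gmnn, limma). That block also tied cumulus to MGC libraries of the same number, which did not deviate together. Of 12 fits that each left out 1 library, Rfc4 and Pola1 passed in 6 and Gmnn in 5, and the value stayed below 0 in all 12 for each gene (-2.23 to -1.55, -1.88 to -1.50 and -1.78 to -1.18).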

How the results depend on the processing

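In cumulus cells, 0 members rose under any of 14 alternatives (8 other settings and 6 single libraries left out). The number that fell was 28 as reported, 13 with no filter on low values and otherwise 22 to 32 under the other settings, with 22 under the replicate block, where libraries share only a number. With 1 library left out it was 14 to 39, and over all genes 684 to 2197 fell and 588 to 1733 rose, against 1546 and 1179. With no filter 692 genes fell and 548 rose, and over all 8 other settings 692 to 1889 fell and 548 to 1412 rose. The median of the members was -1.21 to -0.79 over the libraries left out. Orc4 turned to -0.070 without the first knockout library (-0.070 to 0.20 over those left out).

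In MGCs, 5 genes fell and 1 rose as reported. The fallen numbered 0 with no filter, 0 with median-of-ratios scaling, 0 with voom on reads and 1 with the replicate block, and those that rose numbered 3 with a pseudocount of 0.1, 2 with equal totals, 0 with voom and 2 with the block. With both MGC libraries 3 left out 1704 fell and 782 rose, and 4 members rose, against 0 members under each other setting. With 1 library left out 0 to 111 fell and 0 to 167 rose, and the median of the members was -0.029 to 0.61, its lowest and only negative value without the third knockout library.

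For the difference between the genotype effects, 235 genes were lower and 389 higher as reported. These were 115 and 212 with no filter, 464 and 497 with median-of-ratios scaling, 112 and 358 with equal totals, 150 and 278 with the replicate block, and 869 and 1605 with both MGC libraries 3 left out. The members that passed numbered 3 as reported, 1 with no filter, 12 with median-of-ratios scaling, 1 with equal totals, 1 with the block and 14 (median -0.95) without those libraries. With 1 library left out 34 to 513 genes were lower and 74 to 804 higher, 0 to 14 members passed, and the median was -1.69 to -0.90.

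For WT cumulus cells against WT MGCs, the median of the members was 1.70 with median-of-ratios scaling. Lig1, at 0.29 as reported, was -0.023 with equal totals, and Rrm2, at 0.00, was -0.32 with equal totals and -0.030 with voom, and -0.10 to 0.18 over the libraries left out. For the knockout, 5366 genes were higher with median-of-ratios scaling (3497 as reported), and the median of the members, -0.22 as reported, was 0.41 with that scaling, 0.21 with both MGC libraries 3 left out and -0.43 to 0.21 with 1 library left out. The block changed no other count by over 1.5 times. The causes of these changes were not tested. In fits that left out a library, groups of 2 were assumed to vary like the others. Depth limits Pole, Pold1 and Orc1, which held fewer than 200 reads in every cumulus library.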
